A study of Mus musculus with 9 samples.

Results

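The 10 genes described here belong to the piRNA pathway and the chromatoid body and were measured in the testes of mice without RFX2, a transcription factor of spermatocytes and early spermatids that binds the X-box motif. They were taken by name as PIWI, Tudor and RNA helicase genes (Piwil1, Piwil2, Tdrd1, Tdrd5, Tdrd6, Tdrd7, Tdrd9, Mael, Ddx4 and Mov10l1), were matched to Ensembl gene IDs through GENCODE M21 (GRCm38, the build of all positions below), and are 10 of the 23074 genes in the count table. All 10 were among the 15613 genes that passed the filter on low counts. Testes were taken at P30 (29 to 30 days after birth) from 5 wild type (WT) and 4 Rfx2-/- mice, freed of the capsule, and sequenced as 1 RNA-seq library per mouse. Mice of both genotypes came from a mixed C57BL/6|129/Sv|FVB/N background. In the Rfx2-/- mice, the exon that encodes most of the DNA binding domain was flanked by loxP sites in 129/Sv embryonic stem cells and removed in all cells by breeding to a ubiquitous ACTB-cre strain, and the mixed background line is described as having kept the neomycin cassette of the vector. No treatment was given.

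PIWI proteins bind piRNAs, small RNAs of germ cells that guide the silencing of transposons and, in pachytene spermatocytes and round spermatids, come mostly from long intergenic precursors. Tudor domain proteins bind methylated arginines of PIWI proteins and of the helicase DDX4 and gather them in germ granules, among them the chromatoid body of round spermatids. RNA helicases of the pathway bind or unwind its RNAs. Loss of many of these genes, each on its own, halts germ cells before mature sperm form, and the study set several such mutants beside Rfx2-/- mice.

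None of the 10 genes was called downregulated or upregulated in Rfx2-/- testes. A gene was called at an adjusted p of 0.01 or less and a change of over 2-fold in edgeR, limits that 4.51% of all tested genes met, 3.68% as lower and 0.826% as higher. None had an adjusted p of 0.05 or less either, compared with 7.31% (lower) and 3.48% (higher) of all genes. Only Tdrd7 had an unadjusted p under 0.05, as did 13.7% (lower) and 13.9% (higher) of all genes. DESeq2 also called none. It gave Tdrd7 as the only gene with an adjusted p of 0.05 or less, against 9.62% of all genes (lower), and 2 genes with an unadjusted p under 0.05, against 29.3% of all genes. The fitted changes ranged from 0.719-fold (Tdrd6) to 1.18-fold (Ddx4) of WT, 8 below and 2 above WT, with a median log2 fold change of -0.11 against 0.03 for all tested genes. The 95% intervals lay within 2-fold in both directions for 9 of the 10 genes, and for Tdrd6 the lower bound was 0.450-fold of WT.

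Total counts were between 13574764 and 15193330 in 8 libraries and 28800855 in Rfx2-/- replicate 1, and the 10 genes had from 1345 to 39052 counts per library. Values are given as CPM, counts scaled by the library total and the TMM factor, as mean ± SD over 5 WT and 4 Rfx2-/- libraries. The targeted gene checked the labels: Rfx2 was at 559.7, 552, 471, 541 and 624 CPM in WT and 199, 61.5, 151 and 173 CPM in Rfx2-/- libraries, without overlap, a log2 fold change of -1.91 with an SE of 0.28 (adjusted p = 7.81e-04 in edgeR). Rfx2-/- replicate 2 stood apart from the other 3 Rfx2-/- libraries according to exonic length. Short genes (under 2 kb of exons) had a median log2 difference of 0.57 and long genes (over 8 kb) one of -0.88. Fold changes of the 10 genes are therefore also given without it. Among the WT libraries, replicate 3 was the highest for 6 of the 10 genes (Piwil1, Piwil2, Tdrd1, Tdrd5, Tdrd9 and Mov10l1) and the lowest for 3 (Tdrd6, Tdrd7 and Mael), and the median log2 fold change of the 10 genes was -0.02 without it.

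Per kb of exon, the 10 genes spanned a wide range in WT testes, and each lay above the 85th percentile of the tested genes. Mael, a protein of the nuage with an HMG box, was highest at 631 ± 65.3 CPM per kb. Ddx4 followed with 212 ± 7.46 CPM per kb, then Tdrd6 with 186 ± 15.2 CPM per kb and Piwil1 with 159 ± 13.9 CPM per kb. Ddx4 exceeded Tdrd6 in all 5 WT libraries although the ranges overlapped, and Tdrd6 exceeded Piwil1 in 4 of 5. Tdrd7 had 107 ± 8.72 CPM per kb and was separated from Piwil1 above it and from Piwil2 below it. The remaining 5 genes were closer together. Piwil2 had 65.2 ± 8.99 CPM per kb, Tdrd1 61.9 ± 9.78 CPM per kb, Tdrd9 53.1 ± 5.85 CPM per kb, Tdrd5 40.6 ± 4.86 CPM per kb and Mov10l1 37.1 ± 3.24 CPM per kb. The ranges of neighbours in this order overlapped among these 5, and Tdrd5 and Mov10l1 stood in this order in 4 of 5 WT libraries. In Rfx2-/- testes the order of the means was alike apart from Piwil1 (147 ± 11.4 CPM per kb) standing above Tdrd6 (134 ± 61.5 CPM per kb) and Tdrd9 above Tdrd1. Tdrd6 still exceeded Piwil1 in 3 of the 4 Rfx2-/- libraries, all but replicate 2, where Tdrd6 had 45.4 and Piwil1 139 CPM per kb. Tdrd1 exceeded Tdrd9 in 1 of the 4.

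**Figure D1:**
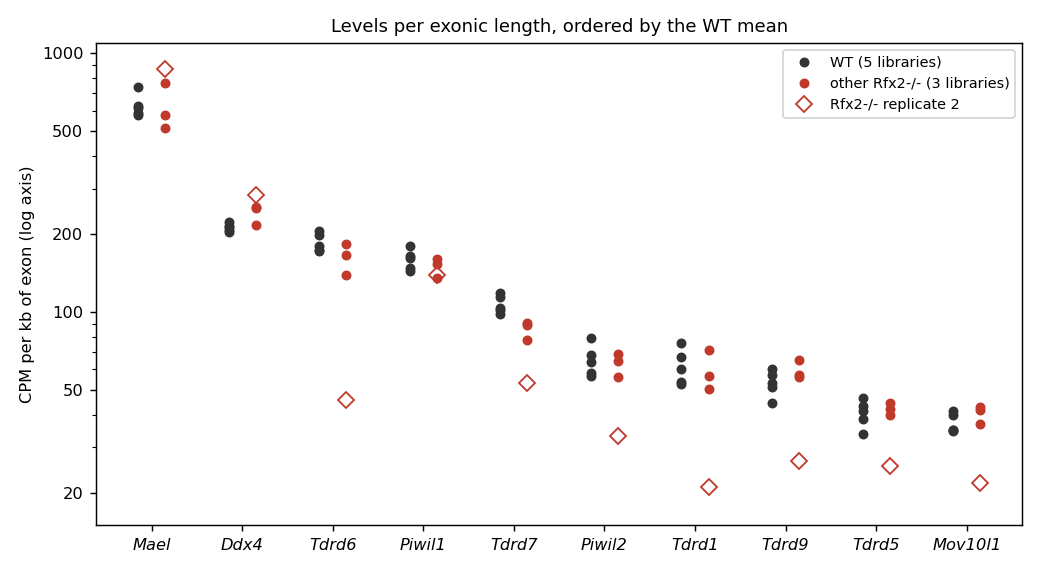
Levels of the 10 genes per kb of exon (CPM per kb, log axis) in every library, ordered by the WT mean, with WT in black, Rfx2-/- in red and Rfx2-/- replicate 2 as an open diamond. Mael is highest at a WT mean of 631 CPM per kb and Mov10l1 lowest at 37.1 CPM per kb, and the diamond lies below the other points in 7 genes and above them in Mael and Ddx4.

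The promoters are shown to set the genes beside the motif that RFX2 binds. RefSeq windows (GRCm38.p6) from 250 bases before to 50 bases after the annotated start were used for 8 of the 10 genes, in 12 windows, and for Piwil2 and Tdrd6 none was used. Searched on both strands were a strict X box (GTT, any base, CCATGG, any base, AAC), a relaxed X box (GT, NNNN, AT, NNN and AAC joined, which includes the strict form), the cAMP response element TGACGTCA that CREM binds, and TAACNG, the core bound by MYB factors, among them A-MYB (MYBL1), a regulator of pachytene piRNA genes. The strict X box and the cAMP response element were in none of the 12 windows, and in 0.128% and 1.79% of all 32851 windows. The relaxed X box was in 1 window, that of the upstream start of Tdrd1 (2.63% of all windows), where the same 14 letters match on both strands. TAACNG was in windows of 5 of the 8 genes, Piwil1, Tdrd5, Tdrd7, Mael and Mov10l1, and in 23.3% of all windows (25.9% of genes). These are matches of letters and do not show binding. The study mapped RFX2 binding by chromatin immunoprecipitation and sequencing in germ cells of younger WT mice, and those peaks were not examined here. Whole windows are given for Piwil1, the PIWI gene with a window, and for Tdrd1, the gene with the relaxed X box. The upstream window of Tdrd7, the gene with the lowest p, is also given, with all matches in capitals.
Piwil1, chr5:128735996-128736295, plus strand: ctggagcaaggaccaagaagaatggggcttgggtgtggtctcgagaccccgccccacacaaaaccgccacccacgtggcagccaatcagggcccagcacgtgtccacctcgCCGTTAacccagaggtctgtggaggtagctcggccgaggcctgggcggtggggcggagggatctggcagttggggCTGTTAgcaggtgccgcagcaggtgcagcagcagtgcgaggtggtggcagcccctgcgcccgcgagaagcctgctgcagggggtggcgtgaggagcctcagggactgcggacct
Tdrd1, chr19:56825959-56826258, plus strand: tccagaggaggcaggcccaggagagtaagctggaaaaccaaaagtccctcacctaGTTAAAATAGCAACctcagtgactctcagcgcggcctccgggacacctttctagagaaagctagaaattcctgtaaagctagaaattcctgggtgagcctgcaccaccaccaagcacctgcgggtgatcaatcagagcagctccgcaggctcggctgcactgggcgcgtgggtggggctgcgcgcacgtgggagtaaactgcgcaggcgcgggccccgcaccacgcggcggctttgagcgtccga
Tdrd7, chr4:45965085-45965384, plus strand: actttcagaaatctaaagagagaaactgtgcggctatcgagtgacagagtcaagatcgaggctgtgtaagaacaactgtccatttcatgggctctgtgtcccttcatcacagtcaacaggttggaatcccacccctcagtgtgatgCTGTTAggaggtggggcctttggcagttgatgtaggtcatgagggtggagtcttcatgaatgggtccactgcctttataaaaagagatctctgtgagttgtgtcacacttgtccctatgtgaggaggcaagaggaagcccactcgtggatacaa
The start of this Piwil1 window lies 33722 bases inside the gene as GENCODE draws it. The starts of the Tdrd1 and Tdrd7 windows are at the 5′ ends of their genes, with 2 further RefSeq starts each downstream. The windows of these further starts are not shown and held none of the motifs searched. Around the TAACNG matches of the other 3 genes the sequence read as follows, 10 bases to each side of the capitals.
Tdrd5, chr1:156303481-156303506, minus strand: aggtctccgcTAACCGtcacaccggc
Mael, chr1:166238730-166238755, minus strand: gctccgagctCGGTTActaagggcgg
Mov10l1, chr15:88982745-88982770, plus strand: cttcacgtgcTAACCGccaacctctc
Mov10l1, chr15:88982766-88982791, plus strand: ctctcgtggcTAACGGtcgagcctcg

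Both PIWI genes had levels in Rfx2-/- testes that overlapped those of WT. Piwil1 (ENSMUSG00000029423, chromosome 5, 128702524 to 128755474, plus strand) encodes MIWI, the partner of pachytene piRNAs in late spermatocytes and round spermatids. Its levels were 630.1, 705, 781, 716 and 643 CPM in the WT libraries and 697, 606, 591 and 665 CPM in the Rfx2-/- libraries, in replicate order. The ranges overlapped, and Rfx2-/- replicate 2 lay between the other Rfx2-/- libraries. The WT mean was 695 ± 60.7 CPM (SD, n = 5) and the Rfx2-/- mean 639.8 ± 49.6 CPM (SD, n = 4), with a log2 fold change of -0.12 with an SE of 0.13 (adjusted p = 0.588 in edgeR) and a 95% interval of 0.752 to 1.13-fold. This was the narrowest spread among the Rfx2-/- libraries of any of the 10 genes, with a coefficient of variation of 7.76%. Piwil1 had -0.09 without Rfx2-/- replicate 2, and its sign turned with total counts in place of TMM (0.0062).

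Piwil2 (ENSMUSG00000033644, chromosome 14, 70372477 to 70429383, minus strand) encodes MILI, which acts from fetal germ cells through to round spermatids. Its levels were 308, 339.6, 417, 360.4 and 298 CPM in the WT libraries and 340.0, 175, 364 and 296 CPM in the Rfx2-/- libraries, in replicate order. Rfx2-/- replicate 2 was lowest of the 9 libraries and the other 3 Rfx2-/- libraries lay in or next to the WT range. Piwil2 had a log2 fold change of -0.23 with an SE of 0.21 (adjusted p = 0.485 in edgeR) and a 95% interval of 0.624 to 1.16-fold. The log2 fold change was -0.05 without Rfx2-/- replicate 2.

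Of the helicase genes, Ddx4 was fitted above WT and Mov10l1 close to it. Ddx4 (ENSMUSG00000021758, chromosome 13, 112598333 to 112652475, minus strand) encodes the mouse VASA homologue, a DEAD-box helicase that marks germ cells and their granules. Its levels were 624, 615, 639.6, 672 and 651 CPM in the WT libraries and 765, 851, 653 and 758 CPM in the Rfx2-/- libraries, in replicate order. Of the Rfx2-/- libraries 3 were above every WT library and replicate 3 lay inside the WT range. The means were 640.2 ± 22.5 CPM and 757 ± 81.0 CPM, with a log2 fold change of 0.24 with an SE of 0.13 (adjusted p = 0.249 in edgeR) and a 95% interval of 0.970 to 1.44-fold. The log2 fold change was 0.18 without Rfx2-/- replicate 2. The value stayed above 0 in all 15 refits, with adjusted p-values from 0.0662 to 0.407.

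Mov10l1 (ENSMUSG00000015365, chromosome 15, 88982909 to 89055152, plus strand) encodes the germ cell helicase that binds piRNA precursors and is needed for their processing. Its levels were 143, 144, 172, 165 and 145 CPM in the WT libraries and 173, 89.9, 178 and 152 CPM in the Rfx2-/- libraries, in replicate order. Rfx2-/- replicate 2 was lowest, and the other 3 Rfx2-/- libraries had 152 to 178 CPM, reaching above the highest WT library. Between genotypes Mov10l1 had a log2 fold change of -0.05 with an SE of 0.19 (adjusted p = 0.883 in edgeR) and a 95% interval of 0.725 to 1.29-fold. The log2 fold change was 0.13 without Rfx2-/- replicate 2.

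In the 5 Tudor domain genes Rfx2-/- replicate 2 was the lowest of the 9 libraries each time. Tdrd7 (ENSMUSG00000035517, chromosome 4, 45965334 to 46034761, plus strand), which encodes a protein that remodels the chromatoid body, was the gene nearest to a call. Its levels were 393, 401, 379, 442 and 458 CPM in the WT libraries and 344, 204, 300.4 and 349.5 CPM in the Rfx2-/- libraries, in replicate order. Every Rfx2-/- library was below every WT library, as in 15.9% of all tested genes in either direction, and Tdrd7 was the only gene of the 10 with this pattern. The means were 415 ± 33.6 CPM and 299.6 ± 67.5 CPM, 72.3% of WT, with a log2 fold change of -0.47 with an SE of 0.17 (adjusted p = 0.103 in edgeR) and a 95% interval of 0.558 to 0.937-fold. Without Rfx2-/- replicate 2 the other 3 Rfx2-/- libraries, at 300.4 to 349.5 CPM, were still below WT, and the log2 fold change was -0.32 with an SE of 0.11 (adjusted p = 0.0730 in edgeR). DESeq2 gave -0.46 with an adjusted p of 0.0467, under 0.05 and over 0.01, and over all refits the adjusted p ranged from 0.0467 to 0.204.

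Tdrd6 (ENSMUSG00000040140, chromosome 17, 43615335 to 43630299, minus strand) encodes a large protein with several Tudor domains that shapes the chromatoid body, and had the lowest fitted value. Its levels were 1222, 1268, 1218, 1405 and 1448 CPM in the WT libraries and 1297, 321, 984 and 1172 CPM in the Rfx2-/- libraries, in replicate order. Rfx2-/- replicate 1 lay inside the WT range and replicates 3 and 4 below it, whereas replicate 2 was far below every other library. The means were 1312 ± 107 CPM and 944 ± 435 CPM, with a log2 fold change of -0.48 with an SE of 0.31 (adjusted p = 0.336 in edgeR). Without replicate 2 the log2 fold change was -0.19 (SE 0.12, edgeR adjusted p = 0.359) and its 95% interval narrowed to 0.728 to 1.06-fold.

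Tdrd1 (ENSMUSG00000025081, chromosome 19, 56826209 to 56870012, plus strand) encodes a scaffold that binds MILI, and its upstream window holds the relaxed X box shown above. Its levels were 286, 328, 413, 365 and 292 CPM in the WT libraries and 388, 115, 309 and 275 CPM in the Rfx2-/- libraries, in replicate order. Rfx2-/- replicate 1 lay among the highest WT libraries, replicates 3 and 4 near the lowest of them and replicate 2 far below. The fit gave a log2 fold change of -0.31 with an SE of 0.28 (adjusted p = 0.493 in edgeR) and a 95% interval of 0.529 to 1.23-fold. The log2 fold change was -0.05 without Rfx2-/- replicate 2, with an interval of 0.770 to 1.20-fold.

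Tdrd9 (ENSMUSG00000054003, chromosome 12, 111971559 to 112068854, plus strand) encodes a Tudor protein with a helicase domain that works with the PIWI protein MIWI2 (PIWIL4) in fetal germ cells. Its levels were 247, 254, 288, 273 and 214 CPM in the WT libraries and 313, 128, 274 and 269.6 CPM in the Rfx2-/- libraries, in replicate order. Rfx2-/- replicates 1, 3 and 4 lay within or above the WT range. The log2 fold change of -0.05 with an SE of 0.22 (adjusted p = 0.900 in edgeR) turned to 0.16 without replicate 2.

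Tdrd5 (ENSMUSG00000060985, chromosome 1, 156255296 to 156303664, minus strand) encodes a LOTUS and Tudor domain protein of the chromatoid body that is needed for pachytene piRNAs. Its levels were 127, 163, 175, 156 and 144 CPM in the WT libraries and 168, 94.9, 158 and 150.1 CPM in the Rfx2-/- libraries, in replicate order. Apart from replicate 2 the Rfx2-/- libraries lay inside the WT range. The log2 fold change of -0.10 with an SE of 0.18 (adjusted p = 0.747 in edgeR) turned to 0.05 without replicate 2. An antisense gene, 4930518J20Rik, shares 176 exonic bases with Tdrd5, and reads of the pair there cannot be told apart because use of strand in the counting is not stated.

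Mael (ENSMUSG00000040629, chromosome 1, 166201201 to 166238747, minus strand) is needed for pachytene piRNAs and transposon silencing. Its levels were 1021, 1068, 1004, 1086 and 1287 CPM in the WT libraries and 889, 1511, 997 and 1332 CPM in the Rfx2-/- libraries, in replicate order. WT replicate 5 was above the other WT libraries, and the Rfx2-/- libraries lay on both sides of the WT range, with replicate 2 highest. The means were 1093 ± 113 CPM and 1182 ± 289 CPM, with a log2 fold change of 0.11 with an SE of 0.18 (adjusted p = 0.711 in edgeR), and the sign turned without replicate 2 (-0.03).

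**Figure D2:**
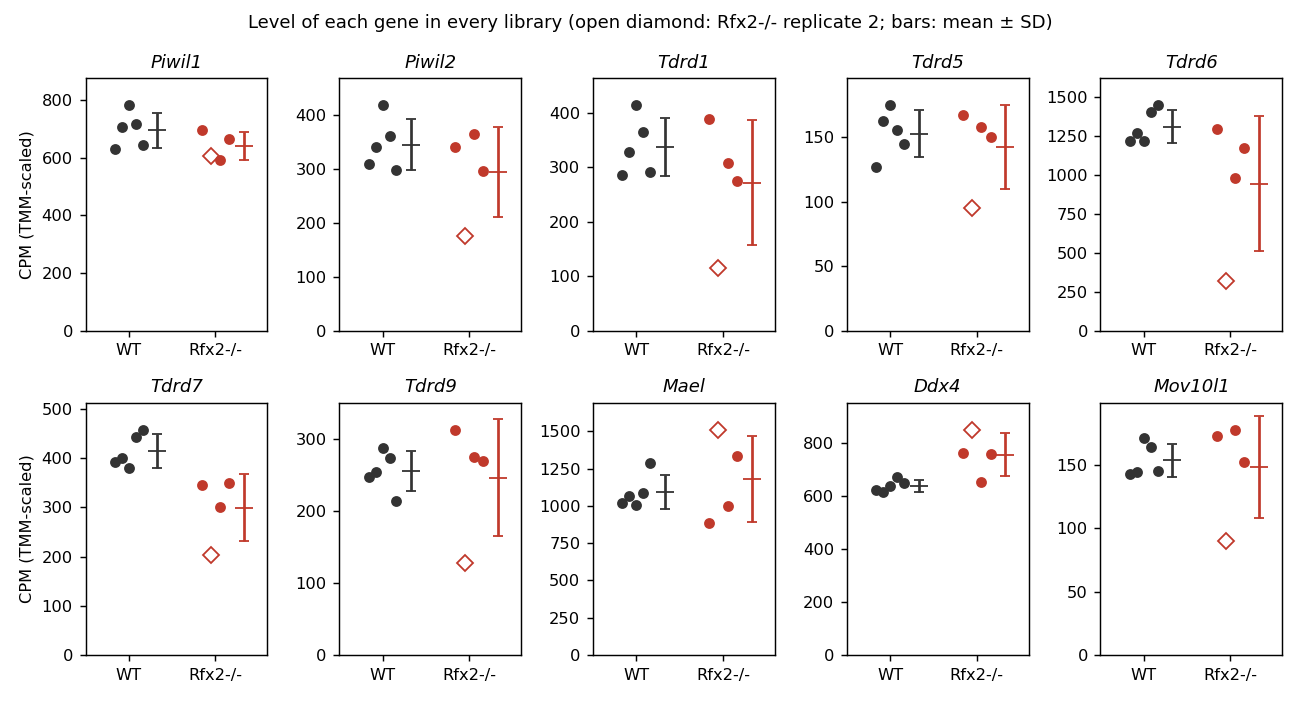
Level of each of the 10 genes in every library (CPM, each axis from 0) in WT (black) and Rfx2-/- testes (red), with Rfx2-/- replicate 2 as an open diamond and bars for mean ± SD. The genotypes overlap in 9 genes, and in Tdrd7 every Rfx2-/- library (204 to 349.5 CPM) lies below the WT libraries (379 to 458 CPM).

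The spread within each genotype was compared with all 9 libraries. The coefficient of variation was 3.51% to 15.8% among WT and 7.76% to 46.1% among Rfx2-/- libraries, larger in Rfx2-/- for 9 of the 10 genes. The Rfx2-/- values include replicate 2, the lowest of the 9 libraries for 7 genes and the highest for 2. They were not computed without it. Without Rfx2-/- replicate 2 the SE of the log2 fold change was between 0.10 and 0.15 for the 10 genes, and every 95% interval lay between 0.677-fold and 1.34-fold of WT. None was then called or had an edgeR adjusted p of 0.05 or less (0.0730 to 0.931). Of 15745 genes tested in that refit, 632 were called lower and 163 higher, and 1539 and 777 had an adjusted p of 0.05 or less. Of the 10 genes 1 had an unadjusted p under 0.05 in edgeR, and the genotypes still overlapped in 9 genes. The shares of all genes for these measures were not computed without that library.

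**Figure D3:**
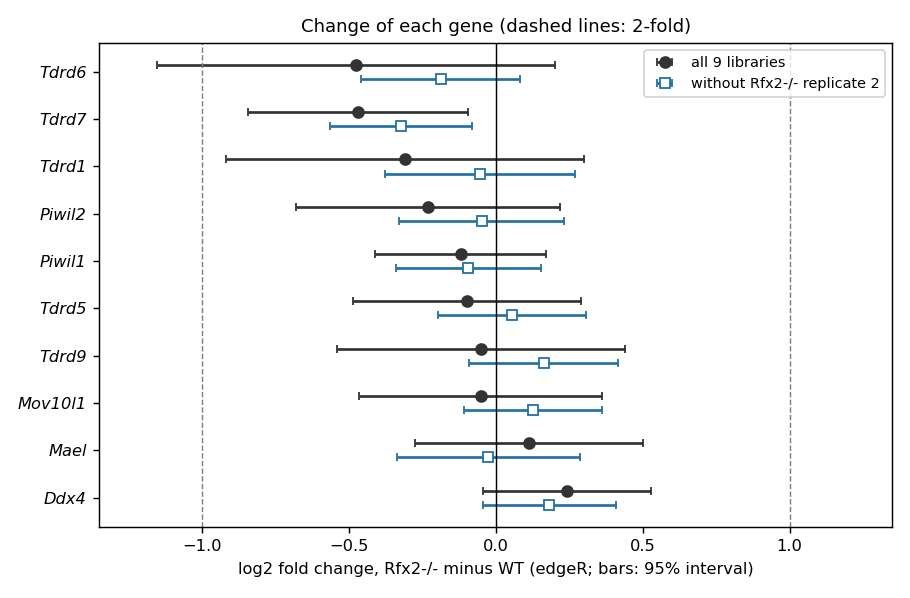
Log2 fold change of each gene in Rfx2-/- over WT testes with its 95% interval from edgeR, with all 9 libraries (black circles) and without Rfx2-/- replicate 2 (blue squares), and dashed lines at 2-fold. All points lie between -0.48 and 0.24, and without replicate 2 every interval lies well inside the dashed lines.

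In Rfx2-/- replicate 2 the genes with the shortest exonic sequence, Mael and Ddx4, were above the other 3 Rfx2-/- libraries, and the longest, Tdrd6, was furthest below them. Mael (1733 bases of exon) was higher there by 0.52 on the log2 scale, and all tested genes under 2000 bases had a median of 0.57 (n = 3729). Ddx4 (3014 bases) was higher by 0.23, whereas genes of 3000 to 4000 bases had a median of -0.10 (n = 2698). Ddx4 stood at percentile 70.1 of that class. Tdrd6 (7062 bases) differed by -1.83, Tdrd1 (5443 bases) by -1.48 and Tdrd9 (4809 bases) by -1.16. The medians of all tested genes of like length were -0.60 (6000 to 8000 bases, n = 1380), -0.47 (5000 to 6000 bases, n = 1304) and -0.28 (4000 to 5000 bases, n = 2003). Within these length classes Tdrd6 stood at percentile 1.96, Tdrd1 at 6.29 and Tdrd9 at 9.64. Mov10l1, Tdrd7, Tdrd5 and Piwil2 differed by -0.89, -0.70, -0.74 and -0.92 and stood between percentiles 16.1 and 26 of their classes. Piwil1, with 4358 bases, differed by only -0.10 and stood at percentile 59.9. So 8 of the 10 genes lay below the median gene of like length in that library, Mael only slightly (percentile 45.2), and Piwil1 and Ddx4 lay above it. After a trend with length had been removed from each library, the log2 fold change between genotypes was -0.41 for Tdrd6 (adjusted p = 0.238 in edgeR), -0.26 for Tdrd1 (adjusted p = 0.424 in edgeR) and -0.44 for Tdrd7 (adjusted p = 0.0615 in edgeR), and none of the 10 genes passed 0.05.

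**Figure D4:**
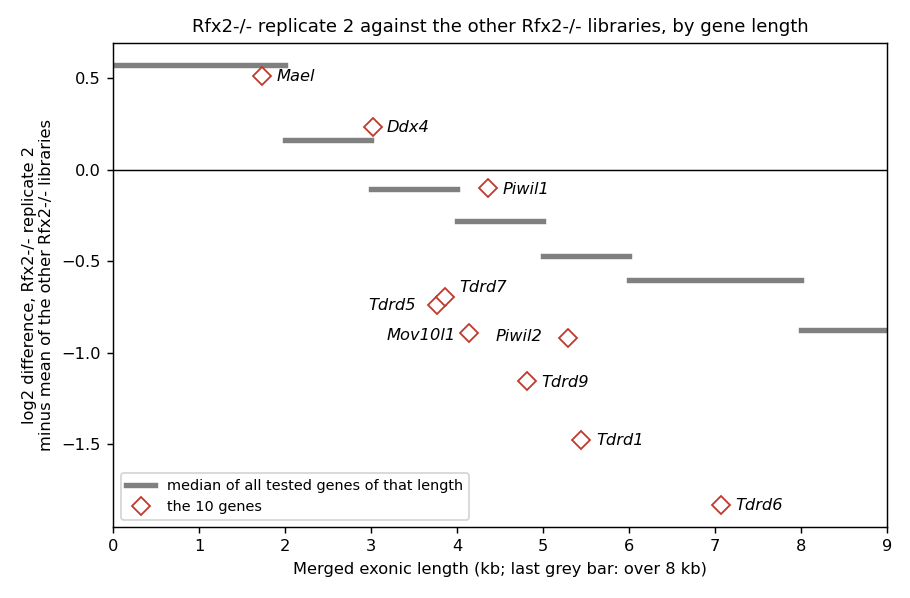
Log2 difference of Rfx2-/- replicate 2 from the mean of the other 3 Rfx2-/- libraries for the 10 genes (diamonds) against merged exonic length in kb, with grey bars for the median of all tested genes in each length class. Mael and Ddx4 lie above 0, Piwil1 near 0, and the other 7 genes lie below the bar of their class, down to -1.83 for Tdrd6.

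The other genes of the pathway were examined as lists. Of 17 further piRNA pathway genes (among them Piwil4, Pld6, Asz1, Gtsf1, Henmt1, Rnf17 and Tex15), all 17 were tested and none was called or had an edgeR adjusted p of 0.05 or less, while 3 lower and 3 higher had an unadjusted p under 0.05 (13.7% and 13.9% of all genes). DESeq2 gave the same counts, 0 at an adjusted p of 0.05 or less and 6 unadjusted. Their median log2 fold change was 0.10, with 10 fitted above and 7 below 0, and it was 0.05 without Rfx2-/- replicate 2. The value furthest below 0 was that of Spocd1, a partner of MIWI2 in the methylation of transposons, with 8.77 ± 1.74 CPM in WT and 5.76 ± 1.53 CPM in Rfx2-/- testes (log2 fold change -0.60, SE 0.22, edgeR adjusted p = 0.108). The value furthest above 0 was that of Stk31, a Tudor domain kinase gene, with 112, 121, 127, 135 and 109 CPM in WT and 143, 285, 138 and 145 CPM in Rfx2-/- libraries. The genotypes did not overlap for 2 of the 17 genes (15.9% of all tested genes), Stk31 above WT and Pld6 below it. Stk31 had a log2 fold change of 0.56 and an SE of 0.21 (adjusted p = 0.119 in edgeR), and was highest in Rfx2-/- replicate 2, in which 7 of the 10 genes were lowest. Without that library Stk31 had 0.23 (adjusted p = 0.157 in edgeR) and Spocd1 -0.63 (adjusted p = 0.0823 in edgeR).

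Of the regulators of piRNA transcription, 2 were measured. Mybl1, the gene of A-MYB, had 113 ± 8.64 CPM in WT and 128 ± 22.8 CPM in Rfx2-/- testes (log2 fold change 0.18, SE 0.15, edgeR adjusted p = 0.437). Tcfl5, a spermatocyte transcription factor, had 335 ± 18.3 CPM and 351 ± 77.4 CPM (log2 fold change 0.07, SE 0.16, edgeR adjusted p = 0.813). The ranges of the genotypes overlapped for both, and without Rfx2-/- replicate 2 Mybl1 had 0.06 and Tcfl5 -0.06.

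Among 15 other genes of the chromatoid body and of RNA regulation (such as Ddx25, Ybx2, Papolb, Boll, Dicer1 and Upf1) none was called, none had an edgeR adjusted p of 0.05 or less, and none had an unadjusted p under 0.05, in edgeR as in DESeq2. The median log2 fold change was -0.18, with 11 fitted below and 4 above 0, and -0.03 without Rfx2-/- replicate 2. The largest differences were those of Kif17, a kinesin of the chromatoid body, with 475 ± 79.3 CPM in WT and 322 ± 130.3 CPM in Rfx2-/- testes (log2 fold change -0.56, SE 0.29, edgeR adjusted p = 0.231), and of the decapping factor gene Dcp1a (-0.37, SE 0.26, edgeR adjusted p = 0.369). Both were lowest in Rfx2-/- replicate 2, at 127 and 13.4 CPM, and without that library Kif17 had -0.29 (adjusted p = 0.206 in edgeR) and Dcp1a -0.12 (adjusted p = 0.572 in edgeR). Part of this list was taken from the genes whose mutants the study groups with Rfx2-/- by their arrest, as were 6 of the 10 genes above. The study states that RFX2 does not regulate the genes of those mutants.

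As a contrast, 9 widely expressed relatives (Ago1 to Ago4, Mov10, Ddx3x, Snd1, Tdrd3 and Akap1) were compared. In WT testes 8 of the 9 had lower levels per kb than any of the 10 genes, from 2.02 to 11.9 CPM per kb. The other one, Akap1, which encodes a mitochondrial anchoring protein with a Tudor domain, had 189 ± 37.8 CPM per kb, above 8 of the 10 genes. Mov10 stood at 9.91 ± 0.752 CPM per kb against Mov10l1 at 37.1 ± 3.24 CPM per kb. None was called, and the median log2 fold change was -0.10, with 5 fitted below and 4 above 0. In edgeR 1 lower and 2 higher had an unadjusted p under 0.05 (13.7% and 13.9% of all genes). Ddx3x, an X-linked DEAD-box helicase gene related to Ddx4, was the only gene of the 9 with an edgeR adjusted p of 0.05 or less. It had 51.31, 50.02, 67.09, 56.19 and 53.65 CPM in WT and 74.4, 100.2, 91.2 and 63.3 CPM in Rfx2-/- libraries. Ddx3x rose, with a log2 fold change of 0.56 and an SE of 0.16 (adjusted p = 0.0415 in edgeR), although the ranges overlapped. The adjusted p was over 0.05 in 5 of the 15 refits, those without WT replicate 1, 2, 4 or 5 or Rfx2-/- replicate 3, and reached 0.116. Without Rfx2-/- replicate 2 Ddx3x had 0.45 (adjusted p = 0.0348 in edgeR). Akap1, named here after its values were seen, had the largest fitted difference of the 9 genes, with 755, 828, 511, 744 and 915 CPM in WT and 509, 205, 518 and 447 CPM in Rfx2-/- libraries. WT replicate 3 lay among the Rfx2-/- libraries and the other WT libraries above them all. Akap1 had a log2 fold change of -0.84 with an SE of 0.26 (adjusted p = 0.0636 in edgeR), and -0.61 without Rfx2-/- replicate 2 (adjusted p = 0.0227 in edgeR). DESeq2 gave 1 gene of the list lower, Akap1 (adjusted p = 0.0148), and 1 higher, Ddx3x (adjusted p = 0.0107). Without Rfx2-/- replicate 2 the median of the 9 genes was 0.09, with 1 lower and 2 higher at an edgeR adjusted p of 0.05 or less. Of all 15745 genes tested in that refit, 1539 were lower and 777 higher at that level.

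Markers of the cells in which these genes are expressed were set beside them. In a whole testis, fewer cells of a type and less RNA per cell cannot be told apart. Markers of all 9 cell types examined were detected, with none at 0 counts in every library. Detection of a marker does not show that cells of its type were present. The study describes an arrest before spermatids elongate in Rfx2-/- testes. It also describes Tnp1 and Tnp2 mRNA, counted here as elongating spermatid markers, as present by the end of the round spermatid stage. Meiotic prophase markers summed to 2272 to 2801 CPM in WT and 2661 to 3994 CPM in Rfx2-/- libraries, with a median log2 fold change of 0.38 and 2 of 15 genes higher at an edgeR adjusted p of 0.05 or less. At an unadjusted p under 0.05 in edgeR 7 were higher and 0 lower (13.9% of all genes were higher). DESeq2 gave 3 higher at an adjusted p of 0.05 or less, against 963 of all 15605 genes. Late spermatocyte markers, which include Hspa2 and Ybx2 of the list above, summed to 7916 to 10448 and 7582 to 11585 CPM. Their median was -0.19, and 1 of 9 genes was lower at an edgeR adjusted p of 0.05 or less. Of all tested genes, 7.31% were lower and 3.48% higher at that level. Round spermatid markers summed to 1542 to 2132 and 1830.2 to 2589 CPM, with a median of 0.31 and 0 of 12 genes at that level in edgeR (4 higher unadjusted, and 2 higher in DESeq2). These are the cells in which most of the 10 genes are known to be expressed. Elongating spermatid markers summed to 12540 to 24682 CPM in WT and 10764 to 14832 CPM in Rfx2-/- libraries, with all 14 fitted below 0, a median of -0.63 and 5 of 14 genes lower at an edgeR adjusted p of 0.05 or less. The lowest WT sum was that of replicate 3, and the other 4 WT libraries summed to 18529 to 24682 CPM. In WT replicate 3 the median log2 deviation from the WT mean was -0.66 for elongating spermatid, -0.35 for round spermatid and -0.27 for late spermatocyte markers, and 0.17 for the 10 genes. Without Rfx2-/- replicate 2 the elongating spermatid numbers were 10 of 14 lower with a median of -0.81, against 1539 lower of all 15745 genes. The median was then 0.27 for meiotic prophase and 0.15 for round spermatid markers. The markers of spermatogonia (0.12), Sertoli (0.20), Leydig (0.19), peritubular (0.13) and macrophage cells (0.21) had medians above 0, with 1 Sertoli marker higher at that level. Of these, the medians of spermatogonia (-0.02) and Leydig markers (-0.08) were below 0 without Rfx2-/- replicate 2. The 10 genes together summed to 5001 to 5640 CPM in WT and to 5373, 4095, 4809 and 5419 CPM in the Rfx2-/- libraries. The part of cell composition in the values of the 10 genes was not tested.

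The genes most like Piwil1 over the 9 libraries were sought among 12900 other genes with a mean of at least 50 counts. Those with the highest Pearson correlation of log2 CPM were Zc3hc1 (r = 0.938), Hoxa3 (r = 0.917), Mreg (r = 0.912), Tars2 (r = 0.912) and Col6a5 (r = 0.897), none of them on the lists above. With 9 libraries of unequal depth and so many genes compared, these values only describe the libraries.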

How the data were processed

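RNA was extracted from decapsulated testes with Qiagen RNeasy columns, and TruSeq libraries were sequenced as single reads. The values that the authors deposited are raw counts of reads for each Ensembl gene, not normalised. Per the labels and methods, the authors used CASAVA 1.8.2, mapped reads to GRCm38 with STAR 2.4, discarded reads with several positions, and counted over merged exons of protein coding isoforms with featureCounts 1.4.6. Genes with near-identical copies lose reads by these steps. The 10 genes shared at most 1.8% of their 50-base words with transcripts of other genes. Use of strand is not stated.

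Columns were matched to mice by title, and replicate numbers follow the order of deposition. GENCODE M21 named 96.6% of the gene IDs and gave positions and merged exonic lengths. Genes were compared in edgeR 4.0.16 (R 4.3.3) by its quasi-likelihood test (TMM, robust, filterByExpr, genotype as the single factor, Benjamini-Hochberg adjustment over 15613 genes). SE is the log2 fold change over the root of F. DESeq2 1.42.0 served as an alternative, beside other scalings, filters, a length correction (lowess, span 0.3) and the omission of each library. The procedure was tested on simulated counts. Libraries of a genotype differed by more than sampling noise (chi-square per gene of at least 4.32). Cell type markers and pathway lists were written from general knowledge and, for some chromatoid body genes, from the study's list of mutants. The 10 genes and all lists were chosen with earlier results of these data known. Named genes were the 10, Rfx2, in each further list up to 6 with an adjusted p of 0.05 or less or otherwise the 2 with the largest change, and the 5 genes most like Piwil1. Btbd18, which also regulates piRNA transcription, was not analysed here.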

Additional observations from a re-analysis of the deposited data

Results flagged for a closer look

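Each of the 10 genes and their sum was examined within each genotype, 22 groups in all, for a library far from the others by Dixon's gap ratio, which chance exceeds in about 1 of 20 groups. Only Mael in WT replicate 5 stood out, with 1287 CPM against 1004 to 1086 CPM in the other WT libraries. Its removal left the log2 fold change of Mael above 0.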

How the results depend on the processing

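None of the 10 genes was called in any of 16 alternatives, including a test against the 2-fold limit itself. The number with an adjusted p of 0.05 or less stayed at 0 except with DESeq2, which gave 1 lower gene (Tdrd7). The median log2 fold change of the 10 genes ranged from -0.16 to 0.02. With total counts in place of TMM the median of all genes went from 0.03 to 0.16, and the median of the 10 genes relative to all genes was -0.14 with TMM and -0.15 with total counts. Fitted values near 0 changed sign, none with an adjusted p of 0.05 or less. With total counts Piwil1 had 0.0062, Tdrd5 0.026, Tdrd9 0.068 and Mov10l1 0.074. With the length trend removed Mael had -0.026 and Tcfl5 -0.0069. Without WT replicate 3 Tdrd9 and Mov10l1 had 0.03 each. Without Rfx2-/- replicate 2 Tdrd5 had 0.055, Tdrd9 0.16, Mael -0.027, Mov10l1 0.13 and Tcfl5 -0.058. When each library was left out in turn, the log2 fold change ranged from -0.16 to 0.05 for Tdrd5, from -0.16 to 0.16 for Tdrd9, from -0.03 to 0.26 for Mael, from -0.12 to 0.13 for Mov10l1 and from -0.06 to 0.19 for Tcfl5.

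Over all genes, 575 were called lower and 129 higher, against 483 and 191 with total counts. Higher calls numbered 198 with DESeq2 and 73 with a mean of at least 50 counts, a filter under which fewer genes were tested. Genes higher at an adjusted p of 0.05 or less numbered 544, compared with 1183 (total counts) and 963 (DESeq2). This count went from 276 to 1393 with each library left out (303, 283, 310 and 276 without WT replicates 1, 2, 4 and 5, and 1393 without Rfx2-/- replicate 1). The causes were not tested. The labels used here give each mouse its own number and name no litter, so no paired analysis was possible. The study used littermates of like age where it could. The widest 95% intervals were those of Tdrd6 (0.450 to 1.15-fold) and Tdrd1 (0.529 to 1.23-fold), which narrowed to 0.728 to 1.06-fold and 0.770 to 1.20-fold without Rfx2-/- replicate 2.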
